A study of Danio rerio with 6 samples.

Results

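The genes described here are nuclear regulators of mitochondrial biogenesis, that is, of the supply of new mitochondrial proteins and of mitochondrial transcription. A list of 10 zebrafish symbols was given, and a symbol was kept when it led to a single Ensembl ID in the table of raw counts. This held for 9 of the 10, out of 32520 genes in the table, and all 9 were among the 24835 genes with a read in any library. They comprise the coactivator genes *ppargc1a* and *ppargc1b*, the nuclear receptor genes *esrra*, *pparaa* and *pparab*, the nuclear respiratory factor genes *nrf1* and *gabpa*, and *tfam* and *polrmt* for mitochondrial transcription. The symbol *ppardb* was left out because the name PPARD belongs to 2 IDs, ENSDARG00000009473 and ENSDARG00000044525, which the name table does not tell apart. These are given below by ID.

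Ventricles of uninjured zebrafish were compared at 2 ages by RNA-Seq. The old fish were 4 years old (replicates 1, 3 and 5) and the young fish 7 months (replicates 1, 2 and 5), with 3 libraries each. No treatment, transgene or sex is given for either group, and the wild-type fish of the study were bred from AB and TU parents. RNA was isolated with Trizol and the samples of best RNA integrity were taken forward, so the libraries are a selected set, and whether each came from 1 ventricle or from a pool is not stated. Differences are given as old against young, and p-values set a difference against the spread between these 6 libraries. In edgeR's fits the spread of a gene is estimated in part from all genes tested, so SE and intervals do not rest on its own values alone.

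Mitochondrial proteins are encoded by 2 genomes, and most come from the nucleus. In mammals, coactivators of the PGC-1 family bind nuclear receptors such as ERRα and the PPARs and nuclear respiratory factors such as NRF1 and GABP, and so couple energy demand to the transcription of respiratory chain and fatty acid oxidation genes. TFAM and the RNA polymerase POLRMT, products of nuclear genes, then transcribe the mitochondrial genome. The ventricle is rich in mitochondria and draws much of its energy from fatty acids. Zebrafish carry 2 copies of some of these genes, of which *pparaa* and *pparab* are an example.

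The libraries held 17742389 to 22547518 counts. At this depth 3 counts, the number that a count of 0 still allows, correspond to 0.124 to 0.161 CPM, counting error only. Levels are given as CPM, counts scaled to a common library total with edgeR's TMM factors unless library size only is named, and values of different genes are not compared because they are not corrected for transcript length. Over all genes, 213 of 24835 had an adjusted p-value under 0.05 (edgeR's quasi-likelihood test, adjusted after Benjamini and Hochberg), with 129 higher and 84 lower in old ventricles. With library size as the only scaling, 181 were higher and 44 lower, and the median fold change of genes of at least 1 CPM moved up by 0.18 on the log2 scale. Differences of this size therefore depend on the scaling, and the value without TMM factors is given where it changes the direction. The cardiomyocyte markers *myl7* (17910 to 27280 CPM) and *myh7* (22860 to 37040 CPM) were abundant in every library.

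None of the 9 regulators passed the threshold, against 0.858% of all tested genes in either direction and 0.338% in the lower direction. Only *pparab* had an unadjusted p-value under 0.05 (edgeR's quasi-likelihood test), which is 1 of 9, while 15.1% of all tested genes had one. In 3 of the 9, *ppargc1a*, *pparab* and *polrmt*, every old library lay below every young library. Groups without overlap were seen in 20.0% of all tested genes and in 25.3% of those with a mean of at least 1 CPM, and in 14.3% of the latter the old libraries were the lower ones. A count of 3 among 9 genes, or 33.3%, is not far from the share of 25.3% in either direction. All 3 were lower, and for that direction alone the share was 14.3%, but 9 genes are too few to tell these shares apart. Fitted values were higher in old ventricles for 4 regulators and lower for 5, with a median of -0.01 on the log2 scale. With library size only, 3 were lower and the median was 0.16. The regulators without overlap then were *pparab* and, with higher values in old ventricles, *gabpa* and *tfam*, against 26.3% of the genes of at least 1 CPM.

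**Figure D1:**
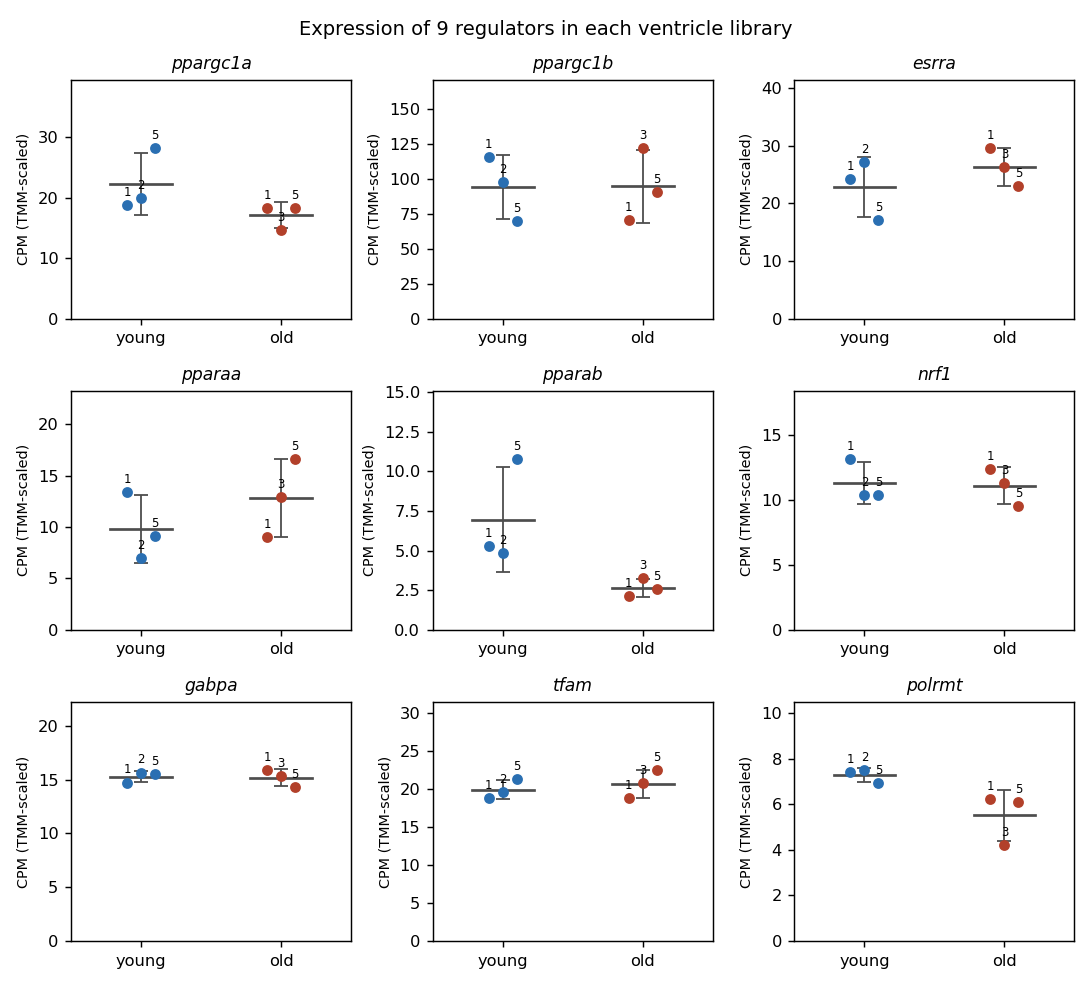
CPM after TMM scaling (y axes, starting at 0) of the 9 regulators in each young (blue) and old (red) library, numbered by replicate, with the mean (bar) and SD (whiskers, n = 3). The groups do not overlap for *ppargc1a*, *pparab* and *polrmt*. The largest relative difference is that of *pparab* (2.13 to 3.27 CPM in old and 4.83 to 10.8 CPM in young libraries), and *gabpa* and *tfam* are nearly level over all 6 libraries.

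The coactivator gene *ppargc1a* (ENSDARG00000067829) encodes PGC-1α, known from mouse and human muscle as the inducible coactivator of mitochondrial biogenesis. It was measured at 18.3, 14.7 and 18.3 CPM in old replicates 1, 3 and 5 and at 18.7, 20.0 and 28.2 CPM in young replicates 1, 2 and 5. The old values were all lower, but old replicates 1 and 5 nearly met young replicate 1, and the wider gap came from young replicate 5. The means were 17.1 ± 2.08 and 22.3 ± 5.15 CPM (SD, n = 3 each), and the log2 fold change was -0.38 (SE 0.22, 95% interval -0.87 to 0.11, adjusted p = 0.462, edgeR's quasi-likelihood test). Without young replicate 5 it was -0.17. Scaled by library size only, the values overlapped, with 19.5, 15.5 and 19.7 CPM in old and 19.0, 18.6 and 24.8 CPM in young libraries.

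Its relative *ppargc1b* (ENSDARG00000101569) encodes PGC-1β, which in mammals shares many targets with PGC-1α but responds less to cold and exercise. Its values were 70.7, 122 and 90.9 CPM in old and 116, 97.5 and 70.0 CPM in young libraries. The groups covered the same range, with old replicate 1 and young replicate 5 at the bottom of each. The log2 fold change was 0.00 (SE 0.25, 95% interval -0.55 to 0.56, adjusted p = 0.994, edgeR's quasi-likelihood test), and its sign was the opposite one under 4 of 15 alternative settings. The 95% interval thus allows an old level between 0.681 and 1.48 times the young one. Young replicate 5 was the highest of all libraries for *ppargc1a* and the lowest for *ppargc1b*. The ratio of *ppargc1b* to *ppargc1a* counts was 3.86, 8.30 and 4.96 in old and 6.17, 4.89 and 2.48 in young libraries and overlapped between the ages.

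Among the nuclear receptor genes, *esrra* (ENSDARG00000069266) encodes ERRα, an orphan receptor that acts with PGC-1α on respiratory chain genes in mammals. It was measured at 29.6, 26.3 and 23.0 CPM in old and 24.1, 27.2 and 17.2 CPM in young libraries. The groups overlapped, and the low young mean came with young replicate 5. The log2 fold change was 0.20 (SE 0.22, 95% interval -0.28 to 0.69, adjusted p = 0.636, edgeR's quasi-likelihood test).

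The 2 copies of the PPARα gene differed in direction. PPARα is a receptor for fatty acids that activates genes of fatty acid uptake and oxidation in the mammalian heart and liver. The copy *pparaa* (ENSDARG00000031777) was at 9.02, 12.96 and 16.6 CPM in old and at 13.4, 6.96 and 9.09 CPM in young libraries. These values overlapped, with the highest in old replicate 5 and the lowest in young replicate 2. The means were 12.9 ± 3.80 and 9.82 ± 3.29 CPM (SD, n = 3 each), with a log2 fold change of 0.39 (SE 0.30, 95% interval -0.29 to 1.07, adjusted p = 0.596, edgeR's quasi-likelihood test).

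The copy *pparab* (ENSDARG00000054323) had the largest difference of the 9 regulators. It was measured at 2.13, 3.27 and 2.56 CPM in old and at 5.26, 4.83 and 10.8 CPM in young libraries, from 47, 61 and 62 counts and 105, 100 and 211 counts. Every old library was lower than every young one, with either scaling, and young replicate 5 was well above the other two young libraries. The means were 2.65 ± 0.573 and 6.95 ± 3.32 CPM (SD, n = 3 each), a 2.62-fold higher level in young ventricles. The log2 fold change was -1.39 (SE 0.37, 95% interval -2.22 to -0.56). This did not pass the threshold after adjustment over all genes (unadjusted p = 0.00409, adjusted p = 0.122, edgeR's quasi-likelihood test). DESeq2, which called 7.27% of the 17045 genes with an adjusted p-value, called *pparab* lower in old ventricles (log2 fold change -1.38, adjusted p = 0.0203). Across the 15 alternative settings the unadjusted p-value was under 0.05 in all 15 and the adjusted one only with DESeq2, with a range from 0.0203 to 0.292. Leaving out young replicate 5 gave the smallest difference, -0.93 on the log2 scale (adjusted p = 0.292).

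A ratio of counts within a library does not depend on the scaling between libraries. The ratio of *pparaa* to *pparab* counts was 4.23, 3.97 and 6.48 in old and 2.55, 1.44 and 0.844 in young libraries. The ages did not overlap, and the mean log2 ratio was 2.26 ± 0.385 in old and 0.54 ± 0.80 in young ventricles (SD, n = 3 each). This ratio was chosen after the values of the copies had been seen and is given as a description without a test.

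The 2 IDs named PPARD encode the receptor that in mammals is present in many tissues and acts on fatty acid oxidation in muscle. ENSDARG00000009473 was at 12.5, 12.1 and 12.4 CPM in old and 14.4, 16.4 and 14.2 CPM in young libraries. ENSDARG00000044525 rested on 21 to 46 counts a library, at 1.41, 1.29 and 0.868 CPM in old and 1.75, 2.22 and 1.84 CPM in young libraries. In each, all old libraries were below all young libraries, although the first overlapped with library size only. The log2 fold changes were -0.28 (SE 0.18, adjusted p = 0.518) and -0.71 (SE 0.38, adjusted p = 0.427) by edgeR's quasi-likelihood test.

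**Figure D2:**
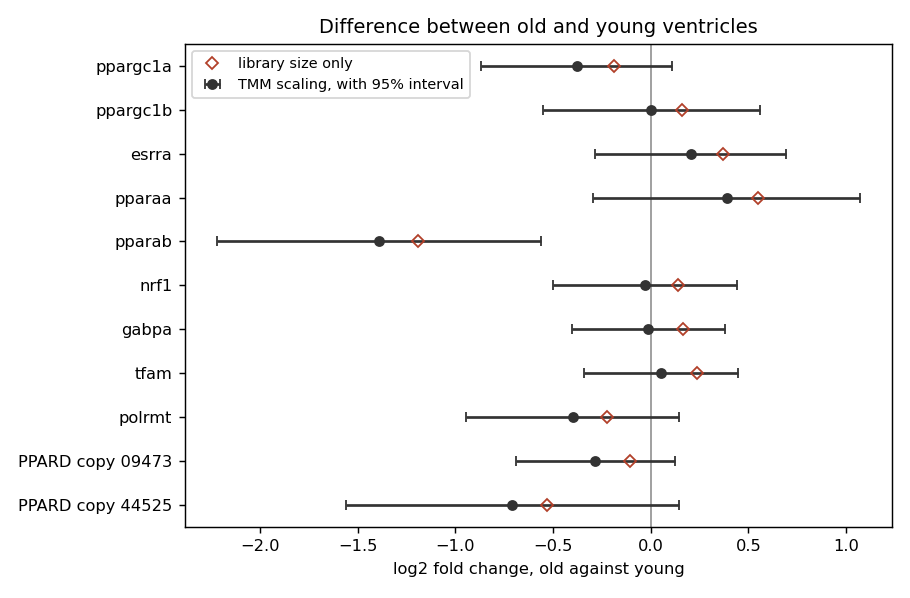
Log2 fold change, old against young (x axis), of the 9 regulators and the 2 IDs named PPARD, with 95% intervals from edgeR (black) and the value with library size as the only scaling (open diamonds). The interval leaves out 0 for *pparab* only (-2.22 to -0.56), and before adjustment over all genes.

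The nuclear respiratory factor gene *nrf1* (ENSDARG00000000018) encodes a DNA-binding factor that activates nuclear genes of the respiratory chain and *TFAM* in mammals. Its values were 12.4, 11.3 and 9.59 CPM in old and 13.2, 10.4 and 10.4 CPM in young libraries. The groups overlapped, and the highest and the lowest value were young replicate 1 and old replicate 5. Its log2 fold change was -0.03 with TMM and 0.14 with library size only (SE 0.21, 95% interval -0.50 to 0.44 and adjusted p = 0.970 with TMM, edgeR's quasi-likelihood test).

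The other factor gene, *gabpa* (ENSDARG00000069289), encodes the DNA-binding subunit of GABP, also called NRF-2, an ETS family factor. It was the steadiest of the 9, at 15.9, 15.3 and 14.3 CPM in old and 14.7, 15.7 and 15.5 CPM in young libraries. The highest library was 1.11 times the lowest and the groups overlapped. The log2 fold change was -0.01 with TMM (SE 0.18, 95% interval -0.41 to 0.38, adjusted p = 0.988, edgeR's quasi-likelihood test) and 0.17 with library size only, when values of 16.9, 16.1 and 15.4 CPM in old lay above 14.9, 14.6 and 13.6 CPM in young libraries. The interval allows an old level from 0.755 to 1.30 times the young one.

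Of the genes for mitochondrial transcription, *tfam* (ENSDARG00000063145) encodes the factor that packages mitochondrial DNA and opens its promoters. It was at 18.8, 20.8 and 22.5 CPM in old and at 18.8, 19.6 and 21.3 CPM in young libraries. The groups overlapped and the highest library was 1.20 times the lowest. A log2 fold change of 0.05 was fitted (SE 0.18, 95% interval -0.34 to 0.45, adjusted p = 0.903, edgeR's quasi-likelihood test), an old level of 0.790 to 1.37 times the young one. Without TMM factors it was 0.24, with 20.0, 21.9 and 24.1 CPM in old above 19.1, 18.3 and 18.7 CPM in young libraries.

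The mitochondrial RNA polymerase gene *polrmt* (ENSDARG00000101220) was at 6.21, 4.23 and 6.12 CPM in old and at 7.41, 7.49 and 6.95 CPM in young libraries. All old libraries were lower, and old replicate 3 stood below the rest. The means were 5.52 ± 1.12 and 7.28 ± 0.294 CPM (SD, n = 3 each), and the log2 fold change was -0.40 (SE 0.24, 95% interval -0.94 to 0.15, adjusted p = 0.496, edgeR's quasi-likelihood test). With library size only it was -0.22 and the groups overlapped, since young replicate 5, at 6.10 CPM, was then below old replicates 1 and 5, at 6.62 and 6.56 CPM. So *tfam* and *polrmt*, whose products act together, had fitted values of opposite sign, but neither difference passed the threshold and the difference between them was not tested.

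**Figure D3:**
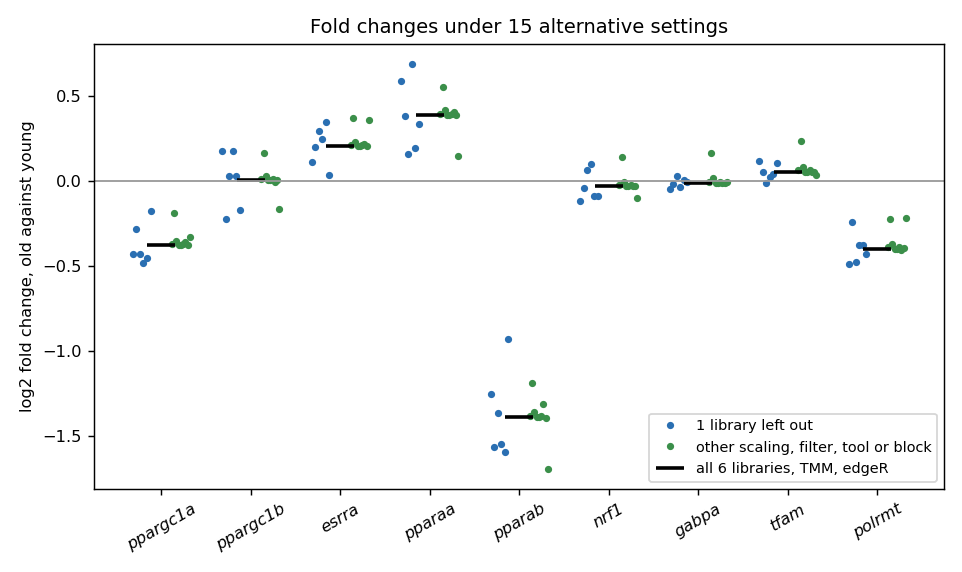
Log2 fold change, old against young (y axis), of each of the 9 regulators with all 6 libraries (black bar), with 1 library left out (blue) and with another scaling, filter, tool or replicate block (green). For *pparab* all 15 alternatives lie between -1.69 and -0.93, whereas *ppargc1b*, *nrf1*, *gabpa* and *tfam* take values on either side of 0.

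How alike the regulators ran over the 6 libraries was measured as the root mean square difference of log2(CPM + 0.5), each gene centred on its own mean, and is given as a description. Of 36 pairs the closest were *gabpa* and *tfam* (0.126), *nrf1* and *gabpa* (0.148) and *ppargc1a* and *polrmt* (0.220). The first pairs are the genes that varied least. Among 6628 genes with a mean of at least 10 CPM, those nearest to *ppargc1a* were *fgd5a* (0.0683), the gene named EPAS1 (ENSDARG00000057671, 0.0941), which encodes a hypoxia-inducible factor subunit, and the gene named BZW2 (ENSDARG00000035918, 0.0999). Each was highest in young replicate 5, as *ppargc1a* was, and these points share the libraries and their scaling.

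Around the 9 regulators, lists of pathway genes were drawn up by function, and 133 of the 166 listed genes had a single ID and reads. None passed the threshold with edgeR's quasi-likelihood test (adjusted p from 0.0586 to 0.988), and DESeq2 called 7 of the 131 with an adjusted p-value, all lower in old ventricles. Over all 17045 genes with an adjusted p-value it called 7.27% in either direction, 748 higher and 491 lower. Without overlap between the ages were 46 of the 133, with 9 higher and 37 lower, or 34.6%. The share was 20.0% of all genes tested and 25.3% of those of at least 1 CPM. Of the 37 lower genes, 12 were mitochondrially encoded mRNAs, which are not independent of each other. With library size only, 38 of the 133 did not overlap, against 26.3% of the genes of at least 1 CPM. At an unadjusted p-value under 0.05 there were 44 genes, 7 higher and 37 lower, and 11 of the lower ones were mitochondrially encoded. Over all genes tested 15.1% had such a value, 2146 higher and 1615 lower.

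The other receptors of the PPAR, ERR and RXR families were 8 genes, with 2 fitted higher and 6 lower. The median log2 fold change was -0.43 (-0.26 with library size only). Groups did not overlap in 5 of the 8, with 2 higher and 3 lower in old ventricles. This is 62.5%, against 25.3% of the genes of at least 1 CPM. With library size only, 3 of the 8 did not overlap, against 26.3%. *esrrga*, which encodes the receptor ERRγ, was at 3.31, 3.21 and 3.88 CPM in old and 5.31, 6.96 and 5.21 CPM in young libraries. The groups did not overlap, with a log2 fold change of -0.75 (SE 0.26, adjusted p = 0.218, edgeR's quasi-likelihood test). The retinoid X receptor genes, whose products pair with PPARs on DNA, differed among themselves, with 0.98 on the log2 scale for *rxrgb* (adjusted p = 0.229) and -0.50 for *rxrba* (adjusted p = 0.286). *pparg*, the adipocyte receptor gene in mammals, had only 1 to 24 counts a library and a log2 fold change of 2.14 (adjusted p = 0.231).

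Of 17 coregulator and partner genes, 4 were fitted higher and 13 lower, with a median of -0.36 (9 lower and -0.19 with library size only). *perm1a* is related to mouse *Perm1*, a gene induced by PGC-1α and ERR in muscle. It was at 47.5, 32.8 and 25.0 CPM in old and 23.6, 18.4 and 5.41 CPM in young libraries, without overlap, and its log2 fold change was 1.15 (SE 0.46, adjusted p = 0.273, edgeR's quasi-likelihood test). *mybbp1a*, whose mouse product represses PGC-1α, was at 0.44 (adjusted p = 0.267). Groups did not overlap in 6 of the 17, with 2 higher and 4 lower in old ventricles. This is 35.3%, against 25.3% of the genes of at least 1 CPM. Among the 4 lower were the coactivator gene *ncoa2* (-0.71, adjusted p = 0.197) and the corepressor gene *nrip1b* (-0.64, adjusted p = 0.215). With library size only, *ncoa2* and *nrip1b* overlapped.

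Genes of the energy sensors upstream of PGC-1α, AMP-activated kinase, sirtuins and NAD synthesis, were lower in 10 of 11 fits, but the median of -0.20 was -0.01 with library size only. *prkag2a*, for a regulatory subunit of AMP-activated kinase, was at 236, 297 and 263 CPM in old and 361, 419 and 357 CPM in young libraries. The groups did not overlap and the log2 fold change was -0.51 (SE 0.15, adjusted p = 0.156, edgeR's quasi-likelihood test). The NAD salvage gene *nampta* was at -0.58 (adjusted p = 0.177).

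**Figure D4:**
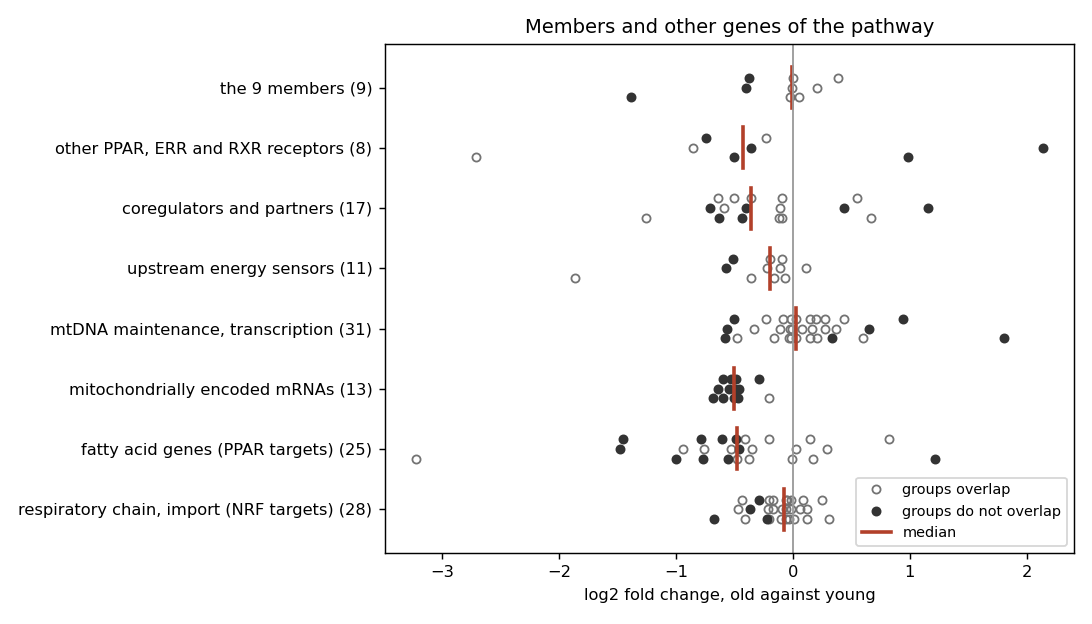
Log2 fold change, old against young (x axis), of the 9 regulators and of 7 lists of pathway genes (number of genes in brackets), with filled points where the old and young libraries do not overlap and a bar at the median. All 13 mitochondrially encoded mRNAs lie below 0. With the TMM scaling shown, the genes for maintenance and transcription of mitochondrial DNA lie around 0 (median 0.03, but 0.21 with library size only).

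Genes for maintenance and transcription of mitochondrial DNA are the nuclear partners of *tfam* and *polrmt*. Of 31, 17 were fitted higher and 14 lower with TMM, but only 6 were lower with library size only. The median of the list was 0.03 and 0.21, respectively. Groups did not overlap in 7 of the 31, with 4 higher and 3 lower in old ventricles. This is 22.6%, against 25.3% of the genes of at least 1 CPM. Among the 4 higher were *endog*, a mitochondrial nuclease gene (0.94, adjusted p = 0.251), and *primpol*, for a primase and polymerase (1.80, adjusted p = 0.183), which had 2 to 17 counts a library. *lrpprc*, whose mammalian product stabilises mitochondrial mRNAs, was at 106, 79.5 and 99.2 CPM in old and 114, 142 and 148 CPM in young libraries. Its log2 fold change was -0.50 (SE 0.18, adjusted p = 0.227, edgeR's quasi-likelihood test), and *fastkd3*, of a family of mitochondrial RNA-binding proteins, was at -0.58 (adjusted p = 0.225).

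The mRNAs transcribed from mitochondrial DNA itself were fitted lower in old ventricles for all 13 genes, with either scaling (median -0.51, and -0.32 with library size only). None was called by edgeR's quasi-likelihood test, and 11 had an unadjusted p-value under 0.05, against 15.1% of all tested genes. DESeq2 called 3, against 7.27% of all genes with an adjusted p-value. The 13 mRNAs took 11.3, 13.9 and 13.5% of the counts in old and 16.2, 14.9 and 17.9% in young libraries. The ages did not overlap, and the means of 12.9 ± 1.39% and 16.3 ± 1.55% (SD, n = 3 each) differed by -3.43 percentage points (exact permutation test, two-sided, p = 0.1, which is the smallest p that 3 against 3 libraries can give). *mt-nd4l*, for a subunit of complex I, was at 522, 565 and 583 CPM in old and 878, 817 and 986 CPM in young libraries, with a log2 fold change of -0.68 (SE 0.14, adjusted p = 0.0586, edgeR's quasi-likelihood test). *mt-nd2*, for another complex I subunit, was at -0.64 (adjusted p = 0.0774). With TMM, every old library was lower than every young one in the 12 genes other than *mt-nd6*. With library size only this held for 10 genes, since *mt-atp8* and *mt-nd3* then overlapped as well. Groups without overlap were seen in 25.3% and 26.3% of the genes of at least 1 CPM, respectively. The values of these mRNAs share the libraries and their scaling, and all but *mt-nd6* come from the same strand of mitochondrial DNA. They are therefore not independent genes, and setting their counts beside shares of all genes is no test. *mt-nd6*, which lies on the other strand, overlapped, with 28.9, 54.1 and 35.7 CPM in old and 55.4, 33.5 and 47.6 CPM in young libraries. The libraries were poly(A)-selected, so these values count polyadenylated transcripts, and the number of mitochondrial genomes was not measured.

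**Figure D5:**
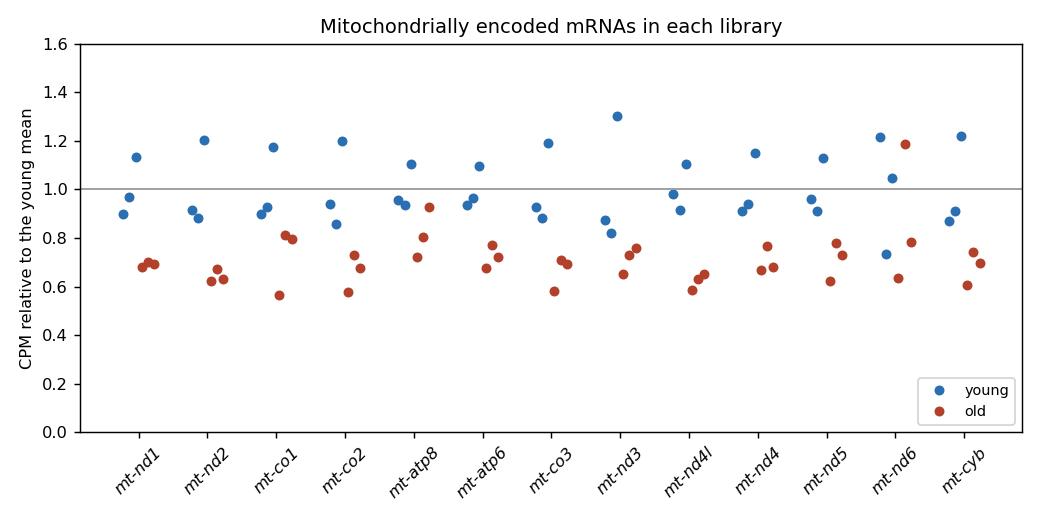
CPM of the 13 mitochondrially encoded mRNAs in each library relative to the young mean (y axis, starting at 0), young in blue and old in red. With the TMM scaling shown, the old libraries are below all young libraries in each gene except *mt-nd6*. With library size only, *mt-atp8* and *mt-nd3* overlap as well.

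Of 25 genes of fatty acid use that PPARs control in mammals, 6 were fitted higher and 19 lower. The median was -0.48 (-0.29 with library size only). Of the higher genes 1 and of the lower genes 9 did not overlap, or 40.0% against 25.3% of genes of at least 1 CPM. With library size only, 7 of the 25 did not overlap, against 26.3% of genes of at least 1 CPM. *pdk4*, whose product blocks pyruvate dehydrogenase and so favours fatty acids as fuel, was at 70.6, 77.5 and 60.7 CPM in old and 119, 112 and 188 CPM in young libraries. The groups did not overlap. Young replicate 5 was highest, as for *pparab* but also for the sums of cardiomyocyte and endothelial markers given below. The fitted log2 difference was -1.002 (SE 0.23, adjusted p = 0.0835, edgeR's quasi-likelihood test), and DESeq2 called the gene lower (adjusted p = 0.00684). *etfdh*, which passes electrons from fatty acid oxidation to the respiratory chain, was at 92.9, 72.6 and 52.0 CPM in old and 114, 130 and 131 CPM in young libraries. Its log2 fold change was -0.78 (SE 0.22), with an adjusted p of 0.136 by edgeR's quasi-likelihood test and 0.0449 by DESeq2. The fatty acid transporter gene *cd36* had 3 to 14 counts a library and was at 1.22 (adjusted p = 0.395). Other genes of the list lay near 0 or above it with overlapping groups, such as *cpt1b* (0.03), *acsl1a* (-0.01), *fabp3* (0.14) and *angptl4* (0.82). Whether the list follows *pparab* was not tested.

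A further pair of genes of fatty acid oxidation is named after their values were seen, because DESeq2 called them. *acadvl*, for the dehydrogenase of very long chains, was at 1743, 711 and 488 CPM in old and 1746, 2783 and 3699 CPM in young libraries, so that old replicate 1 lay next to young replicate 1. Its log2 fold change was -1.48 (adjusted p = 0.151) with all libraries and -2.19 (adjusted p = 0.00798) without old replicate 1 by edgeR's quasi-likelihood test. *decr1*, an auxiliary enzyme for unsaturated fatty acids, was at -0.77 (adjusted p = 0.140) and -1.002 (adjusted p = 0.0459), respectively. *etfdh* also passed the threshold without old replicate 1 (-1.002, adjusted p = 0.0499). Leaving out that library gave 412 calls over all genes, against 213 with all libraries. Each of *acadvl*, *decr1* and *etfdh* was called under 2 of the 15 alternatives, DESeq2 and this one. Their largest adjusted p-values over the alternatives were 0.577, 0.599 and 0.511.

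For the genes of the respiratory chain and of protein import that respond to NRF1 and GABP in mammals, 7 were fitted higher and 21 lower of 28. The median of -0.08 turned to 0.11 with library size only. Without TMM factors, 7 of the 28 did not overlap, against 26.3% of the genes of at least 1 CPM. Among them *cox4i1l*, *cox5aa*, *cox7c* and *uqcrh* were higher in old ventricles and *uqcrc2b* was lower. With TMM, 4 genes did not overlap, all lower in old ventricles, or 14.3% against 25.3% of the genes of at least 1 CPM. Of these, *tomm70a*, for an import receptor of the outer membrane, was at 34.5, 26.6 and 34.6 CPM in old and 39.4, 52.5 and 61.2 CPM in young libraries. This gave a log2 fold change of -0.68 (SE 0.21, adjusted p = 0.173, edgeR's quasi-likelihood test). *uqcrc2b*, for a core subunit of complex III, was at -0.37 (adjusted p = 0.266). This list of respiratory chain and import genes and the mitochondrially encoded mRNAs thus stood at medians of -0.08 and -0.51. The difference between these lists was not tested.

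Markers of other cell types differed along with these values. Summed leukocyte markers were 242 to 784 CPM in old and 143 to 237 CPM in young libraries, with 11 of 11 fitted higher and 7 without overlap, and *lcp1* passed the threshold (adjusted p = 0.0483, edgeR's quasi-likelihood test). Summed erythrocyte markers were 498 to 581 CPM in old and 958 to 2868 CPM in young libraries, with 7 of 7 fitted lower and *hbaa1* (adjusted p = 0.0307) and *gata1a* (adjusted p = 0.0434) past the threshold. Young replicate 1 was the highest library of this sum. Cardiomyocyte markers summed to 83600 to 104200 CPM in old and 90430 to 119900 CPM in young libraries, and these sums overlapped. Of the 11, 9 were fitted lower (median -0.28, and -0.09 with library size only) and none passed the threshold. In 3 of the 11, *myh7*, *mybpc3* and *ryr2b*, all old libraries were the lower ones. This is 27.3%, against 25.3% of the genes of at least 1 CPM without overlap in either direction. With library size only, *myh7* and *mybpc3* overlapped and *ryr2b* did not. Young replicate 5 was the highest library for the sums of cardiomyocyte and of endothelial markers (the latter 678 to 832 CPM in old and 728 to 1174 CPM in young libraries). Of 6 endothelial markers, 1 was fitted higher and 5 lower, and 2 did not overlap, in opposite directions. *cldn5b* was higher in old ventricles (1.86, adjusted p = 0.134 with edgeR's quasi-likelihood test and 0.0160 with DESeq2). *tie1* was lower (-0.24, adjusted p = 0.539, edgeR's quasi-likelihood test). The part of these cell types in the differences was not tested, and in whole ventricles fewer cells of a type and less RNA per cell cannot be told apart.

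Tissues next to the ventricle were also examined by their markers. Liver markers summed to 8.73 to 38.4 CPM in old and 4.66 to 6.28 CPM in young libraries. Most of this was *tfa*, for transferrin, at 10.3, 7.87 and 38.1 CPM in old and 3.91, 6.23 and 5.72 CPM in young libraries (log2 fold change 1.83, adjusted p = 0.153 with edgeR's quasi-likelihood test and 0.0253 with DESeq2), while *fabp10a* and *apoa2* were at most 0.409 and 0.150 CPM. The adipocyte marker *plin1* was at most 0.0453 CPM, while the adipocyte list summed to 67.4 to 109 CPM in old and 77.6 to 141 CPM in young libraries. Most of that sum was *cfd*, at 61.1 to 133 CPM over the 6 libraries. Summed markers of bulbus smooth muscle overlapped (58.6 to 115 CPM in old and 95.3 to 131 CPM in young libraries), but this sum was mostly *acta2*. The other bulbus markers were higher in all old libraries, with a log2 fold change of 3.35 for *elnb* (adjusted p = 0.196, edgeR's quasi-likelihood test) and 1.85 for *fbln5* (adjusted p = 0.138, and 0.0233 with DESeq2). *elnb* had 0 to 313 counts a library and was at 1.81, 1.34 and 12.9 CPM in old replicates 1, 3 and 5. *fbln5* had 27 to 192 counts and was at 2.36, 10.3 and 3.64 CPM in these, so each leaned on 1 old library. Summed markers of epicardium and fibroblasts overlapped (271 to 400 CPM in old and 339 to 441 CPM in young libraries), but this sum was mostly *col1a1a*, *col1a2* and *dcn*. Of the 8 markers, 4 were fitted higher and 4 lower. Only *wt1b*, with 6 to 26 counts a library, did not overlap, and it was higher in old ventricles (1.15, adjusted p = 0.320, edgeR's quasi-likelihood test). Thrombocyte markers summed to 115 to 191 CPM in old and 76.2 to 96.4 CPM in young libraries, a difference that came from *fn1b* (1.04, adjusted p = 0.0747), whereas *itga2b* (0.03), *mpl* (-0.89) and *gp1bb* (-0.68) overlapped. *smtnl1*, the single atrial marker measured, was at 11.9 to 50.6 CPM in old and 52.3 to 109 CPM in young libraries. The part of these tissues in the values of the regulators was not tested.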

How the data were processed

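Total RNA of 6 zebrafish ventricle samples was sequenced from poly(A)-selected, stranded libraries. The authors deposited raw counts of uniquely mapped reads for 32520 Ensembl genes, made with bcl2fastq 2.20.0.422, STAR 2.5.4b on GRCz11 and strand-specific featureCounts 1.6.3, and ambiguous reads (several positions or genes) were discarded. Counts of close copies are therefore uncertain.

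Genes without any read were dropped and the other 24835 were fitted in R 4.3.3 with edgeR 4.0.16 (TMM, quasi-likelihood test, default deviances, age as the only factor), with Benjamini-Hochberg adjustment over all of them and a threshold of 0.05. DESeq2 1.42.0 and limma 3.58.1 gave alternatives, and figures were drawn with matplotlib 3.10.9. The test was tested on simulated data for old against young (24835 genes), where it recovered 16.0% of genes changed 2-fold and 94.0% of those changed 4-fold, and 3.51% of its calls were false. The changed genes were drawn only from genes above a minimum mean CPM, and the simulated spread followed the trend over all genes. These rates therefore do not cover genes of lower level, *pparab* among them.

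Of the 10 symbols, 8 were matched in the name table and *pparab* through the study's own gene table. The members and the pathway and marker lists were chosen with earlier results of these data known. Named were all members and, per pathway list, the genes past the threshold and the 2 in each direction with the smallest p-value without overlap, besides *acadvl* and *decr1*. Some further genes were named after their values were seen, to show another direction or the effect of the scaling. No sequences are shown, since none were used here.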

Additional observations from a re-analysis of the deposited data

How the results depend on the processing

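Fitted values were recomputed under 15 alternatives (fewer for some genes of very low counts, which the filters or a left-out library removed or which had no adjusted p-value): DESeq2's size factors, library size only, filterByExpr, at least 10 reads in all, no filter, DESeq2, limma-voom, bias-adjusted deviances, a replicate block and each library left out. Count ratios and likeness values were not recomputed, and the planned motif search in promoters was not run. Over all genes, 19 (without young replicate 2) to 412 (without old replicate 1) passed the threshold with 1 library left out, 1239 with DESeq2, 65 with at least 10 reads, 120 without a filter, 111 with filterByExpr, 111 with bias-adjusted deviances and 94 with limma-voom.

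Of the 9 regulators, 0 were called higher under any alternative and 1 was called lower with DESeq2 (*pparab*). Their median log2 fold change was 0.16 with library size only and -0.0857 to 0.0285 with 1 library left out. Signs turned for *ppargc1b* (-0.0083 with limma-voom and -0.22 to 0.18 with 1 library left out), *nrf1* (0.14 with library size only and -0.12 to 0.10), *gabpa* (0.17 with library size only, 0.0154 with filterByExpr and -0.0462 to 0.0285) and *tfam* (-0.0107 to 0.12). Among the pathway genes, 0 to 1 were called higher with 1 library left out (*angptl4*, 1.30, adjusted p = 0.0414 without old replicate 5) and 0 to 3 lower (3 without old replicate 1), and DESeq2 called 7 lower. The causes were not tested. The median of the maintenance and transcription genes was -0.05 without old replicate 5.

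Replicate numbers 1 and 5 occur at both ages. The deviations of same-numbered libraries correlated with -0.03 and 0.02 across 13262 genes. With so few shared numbers, this cannot show whether same-numbered samples were handled together, and the labels do not say. With the replicate block, 126 genes passed the threshold, 1 pathway gene was called lower (*lpin1*, -1.90, adjusted p = 0.0434), the median of the regulators was -0.10 and *ppargc1b* was at -0.16.

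Most genes changed 2-fold in simulated counts for old against young were not recovered, so differences of that size can be missed. The share of mitochondrially encoded mRNAs, recomputed only with each library left out, differed by -4.16 to -2.62 percentage points and could not reach an exact p under 0.1.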
